A study of Macaca mulatta with 8 samples.

Results

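The cytosolic ribosomal protein genes of the rhesus monkey were followed through 4 stages of neural differentiation in culture. Genes were taken by symbol: every symbol that starts with RPL or RPS and a digit, plus RPSA and RPLP0 to RPLP2, leaving out the RPS6K kinases and symbols that end in L. The rule found 17 of the 12460 gene symbols with FPKM values. They were 9 proteins of the small subunit (RPSA, RPS3, RPS9, RPS12, RPS13, RPS20, RPS21, RPS24 and RPS25), 7 of the large subunit (RPL7A, RPL19, RPL23, RPL24, RPL28, RPL37A and RPL38) and RPS19BP1. The last met the rule by its symbol, but it encodes a nucleolar protein that binds RPS19 and is no part of the ribosome. Each of the 17 symbols had 1 row, none was listed at 0, and all 17 passed the minimum of 3 FPKM. Passing was close to given, since 12458 of the 12460 symbols with values had at least 3 FPKM in some stage. The paper surveyed more genes than these and called those with at least 3 FPKM expressed.

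The 4 stages came from 1 wild-type line, IVF3.2. ESCs were kept on inactivated mouse embryonic fibroblasts. R-NSCP1 were neural rosettes at passage 1, picked by hand, in N2 medium with 200 ng/ml SHH, 100 ng/ml FGF8, ascorbic acid and BDNF. R-NSCP6 were the cells at passage 6, after culture with 500 ng/ml SHH, Dll4, Jagged-1, ascorbic acid and BDNF. Rosettes were no longer seen at that passage, and the whole dish was taken. NPCs had spent more than 100 days with the growth factors FGF2 and EGF at 20 ng/ml each, again with ascorbic acid and BDNF. Medium, time in culture and the way of collecting cells thus changed together with the stage and cannot be told apart from it. Each stage was 1 library of poly-A mRNA, for which cells of many repeats had been pooled, so no spread between cultures could be measured and no test was made. Differences were described by their size and set beside the same values over all 12458 expressed genes, meaning those with at least 3 FPKM in at least 1 stage. FPKM is the number of fragments per kilobase of exon scaled to the number of mapped fragments. The table held no fragment counts, so the precision of a single value was unknown.

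The stage labels were checked with 4 markers each. The summed FPKM of the ESC markers POU5F1, NANOG, LIN28A and DPPA4 was 2846 in ESC, 103 in R-NSCP1, and 0.67 and 0.21 in the later stages. The R-NSC markers PAX6, EMX2, DACH1 and ZBTB16 summed to 0.61 (ESC), 175 (R-NSCP1), 227 (R-NSCP6) and 49.2 (NPC). From R-NSCP1 to R-NSCP6, EMX2 (64.5 to 125) and DACH1 (31.5 to 38.2) rose, whereas PAX6 (67.8 to 62.3) and ZBTB16 (10.9 to 1.76) fell. The glial markers GFAP, S100B, AQP4 and CD44 reached 852 in NPC against 2.33 to 4.91 elsewhere. Markers of other cells were not at 0: 7 fibroblast genes summed to between 30.4 and 65.1 FPKM, and 3 neuron genes (DCX, TBR1 and NEUROD6) to 78.5 in R-NSCP6 against 0.656 in ESC. The part of such cells in the results was not tested. The FPKM of all symbols summed to 996346 (ESC), 479687 (R-NSCP1), 771784 (R-NSCP6) and 500821 (NPC). A pair of symbols, LOC100426412 and CTXN1, made up 21.2%, 4.96%, 21.7% and 9.87% of these sums.

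A ribosome carries out translation and consists of a small subunit, which reads the mRNA, and a large subunit, which forms the peptide bond. Its proteins are made in near equal amounts, and the mRNAs of nearly all of them begin with a terminal oligopyrimidine (TOP) tract, through which mTOR signalling sets their translation. Pluripotent cells divide fast and are known for active ribosome production, and neural stem cells are among the cell types in which ribosome production is known to change as they differentiate.

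Most of the ribosomal protein genes were among the most abundant mRNAs in every stage. By mean FPKM over the 4 stages, 10 of the 17 ranked among the highest 100 of all symbols and 15 had over 100 FPKM in every stage. RPL38 ranked 9, RPL23 ranked 34 and RPS12 ranked 39. The members below these levels were RPS24, at rank 1894, and RPS19BP1, at rank 6239. Among the 16 structural proteins the order of the levels was similar from stage to stage, with Spearman's rho over genes from 0.71 between R-NSCP1 and NPC to 0.90 between ESC and R-NSCP1. These coefficients describe 16 genes measured in the same libraries and are no test.

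**Figure D1:**
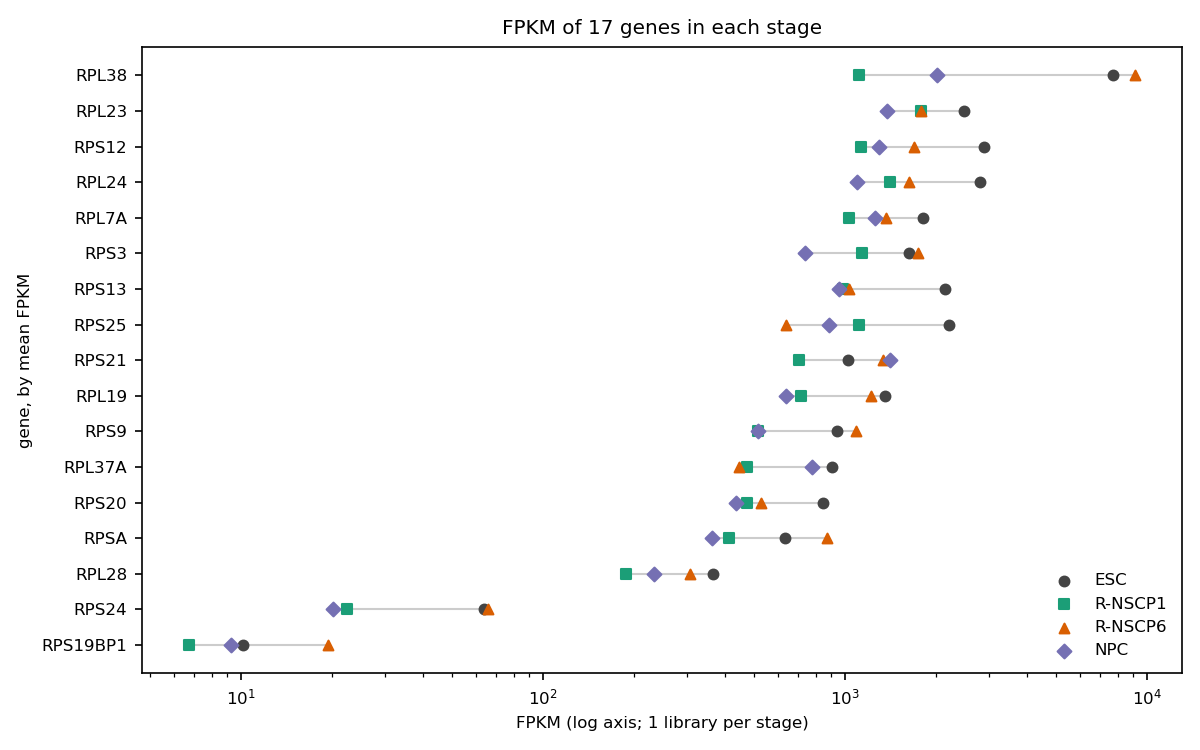
FPKM (horizontal, log axis) of the 17 genes (vertical, by mean FPKM) in each of the 4 stages. Each point is 1 library and the grey line joins the lowest and highest stage. RPL38 spans 1110 to 9118 FPKM, RPS24 and RPS19BP1 lie under 66 FPKM in every stage, and as deposited no gene has its highest point in R-NSCP1.

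As deposited, the highest FPKM of the 17 members was that of ESC for 10, R-NSCP6 for 6, NPC for 1 and R-NSCP1 for 0. Among all expressed genes the shares were 32.5% for ESC, 29.9% for R-NSCP6, 20.8% for NPC and 16.8% for R-NSCP1. The lowest FPKM was in NPC for 8 members, in R-NSCP1 for 7 and in R-NSCP6 for 2, against 31.9%, 11.1% and 23.1% of all expressed genes. A gene was called prevalent in a stage with at least 3 FPKM and at least 2 times the value of the second stage. By that rule 1 member, RPS13, was prevalent as deposited, and its stage was ESC, with 2.09 times the second stage. After upper-quartile scaling or division by the FPKM sum it lay under 2 times and was no longer prevalent. Over all expressed genes 25.4% were prevalent in some stage as deposited.

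The proteins of the small subunit are described first. Values of single genes, here and below, are as deposited, and their highest and lowest stages can change with the scale between libraries. RPS12, a protein of the beak of the small subunit, had 2892 FPKM (ESC), 1130 (R-NSCP1), 1697 (R-NSCP6) and 1294 (NPC). RPS13 had 2144 (ESC), 987 (R-NSCP1), 1028 (R-NSCP6) and 958 (NPC), so the 3 neural stages lay close together below ESC. RPS25, which human and yeast cells need for initiation at some internal ribosome entry sites, had 2217 (ESC), 1114 (R-NSCP1), 637 (R-NSCP6) and 886 (NPC). It was 1 of only 2 members with the lowest value in R-NSCP6. RPS20, a protein of the head of the subunit, had 849 (ESC), 474 (R-NSCP1), 527 (R-NSCP6) and 435 (NPC).

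The other small subunit genes were as high in R-NSCP6 as in ESC, or higher. RPS3, which lines the mRNA entry channel and also takes part in DNA repair, had 1627 FPKM (ESC), 1140 (R-NSCP1), 1750 (R-NSCP6) and 740.0 (NPC). RPS9, also at the entry channel, had 945 (ESC), 514 (R-NSCP1), 1085 (R-NSCP6) and 517 (NPC). RPSA, the protein also known as the laminin receptor, had 633 (ESC), 412 (R-NSCP1), 871 (R-NSCP6) and 362 (NPC). In the rows of these symbols R-NSCP6 was the highest stage, and R-NSCP1 and NPC were the lower pair. For RPSA this did not hold once other rows of the protein were added, as given below. RPS21 had 1024 (ESC), 703 (R-NSCP1), 1337 (R-NSCP6) and 1407 (NPC), and as deposited was the only member whose highest value was in NPC. After division by the FPKM sum RPL37A was highest in NPC too. RPS24, a gene mutated in Diamond-Blackfan anaemia in humans, had 63.6 (ESC), 22.4 (R-NSCP1), 65.9 (R-NSCP6) and 20.2 (NPC). RPS19BP1 had 10.1 (ESC), 6.73 (R-NSCP1), 19.4 (R-NSCP6) and 9.29 (NPC).

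In the large subunit, RPL23, which in human cells can bind and inhibit MDM2 when free of the ribosome, had 2481 FPKM (ESC), 1791 (R-NSCP1), 1785 (R-NSCP6) and 1377 (NPC). RPL24, which forms a bridge to the small subunit and is mutated in the mouse strain Belly spot and tail, had 2804 (ESC), 1412 (R-NSCP1), 1633 (R-NSCP6) and 1093 (NPC). RPL7A had 1809 (ESC), 1034 (R-NSCP1), 1364 (R-NSCP6) and 1261 (NPC). As deposited all 3 were highest in ESC, and their highest value was at most 2.57 times the lowest. RPL19, another bridge protein, had 1355 (ESC), 717 (R-NSCP1), 1223 (R-NSCP6) and 640.2 (NPC). RPL28, which has no counterpart in budding yeast, had 367 (ESC), 189 (R-NSCP1), 306 (R-NSCP6) and 233 (NPC). RPL37A, a zinc-binding protein, had 906 (ESC), 473 (R-NSCP1), 447 (R-NSCP6) and 777 (NPC), and its 2 middle stages were the low ones.

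RPL38 stood apart from the other members. Loss of 1 copy of this gene causes the Tail short phenotype in mice, with skeletal defects and reduced translation of a subset of Hox mRNAs. It had 7745 FPKM (ESC), 1110 (R-NSCP1), 9118 (R-NSCP6) and 2022 (NPC), so ESC and R-NSCP6 were high and R-NSCP1 and NPC low. The value in R-NSCP1 was 6.98-fold lower than in ESC, that in R-NSCP6 8.21-fold higher than in R-NSCP1, and that in NPC 4.51-fold lower than in R-NSCP6. Among the other 16 members the highest stage was between 1.75 and 3.48 times the lowest. RPL38 made up 25.9% of the summed FPKM of the 17 members at the ESC stage, and 8.39%, 36.6% and 14.4% at the following stages. It ranked 8 of all symbols in ESC and 5 in R-NSCP6. The LOC100426412 and CTXN1 share of the FPKM sum, given above, was also highest in ESC and R-NSCP6, and its part in the values of RPL38 was not tested. The order of the 4 stages for RPL38 was the same after scaling to the upper quartile, to the median of ratios or to the library sum.

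The comparison of R-NSCP1 with ESC asks how the genes differ between pluripotent cells and the first rosettes. As deposited, all 17 members were lower in R-NSCP1, against 47.1% of all expressed genes. The log2 ratio of FPKM + 1 had a median of -0.92 and ran from -2.80 for RPL38 to -0.47 for RPL23. Over all expressed genes the median was 0.05. At a limit of 2-fold, 4 members were lower (RPL38, RPS24, RPS12 and RPS13), against 12.4% of all expressed genes, and 0 were higher, against 17.2%. The direction depended on the scale between libraries: after each library was divided by its FPKM sum, the median ratio of the members was 0.14, with 13 higher and 4 lower, and that of all expressed genes 0.96, with 86.3% higher. With LOC100426412 and CTXN1 left out of the sums, a scale chosen after seeing the data, the median of the members was -0.13, with 5 higher and 12 lower, and that of all expressed genes 0.73. The median of the members minus that of all expressed genes was -0.97 as deposited and -0.82 after division by the FPKM sum. Apart from the 1 added to FPKM, a scaling shifts every gene alike, so this difference could not move far. Abundant genes in general were lower too: the 795 expressed genes with a mean of at least 100 FPKM had a median of -0.56 as deposited, which left a difference of -0.36 for the members.

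The comparison of R-NSCP6 with R-NSCP1 sets the last passage, without rosettes, against the first. Here 14 members were higher, against 49.4% of all expressed genes, and 3 were lower (RPS25, RPL37A and RPL23), against 50.1%. The median log2 ratio was 0.62, against -0.00 for all expressed genes, and after division by the FPKM sum it was -0.07, with 8 higher and 9 lower, against -0.59 for all expressed genes, of which 23.7% were higher. It was 0.21, with 10 higher and 7 lower, against -0.35, when LOC100426412 and CTXN1 were left out of the sums. At 2-fold, 5 members were higher (RPL38, RPS24, RPS19BP1, RPS9 and RPSA), against 13% of all expressed genes, and 0 were lower, against 11.2%. RPL38 gave the highest log2 ratio, 3.04, and RPS25 the lowest, -0.81. The difference from all expressed genes was 0.62, and from the abundant genes it was 0.44.

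**Figure D2:**
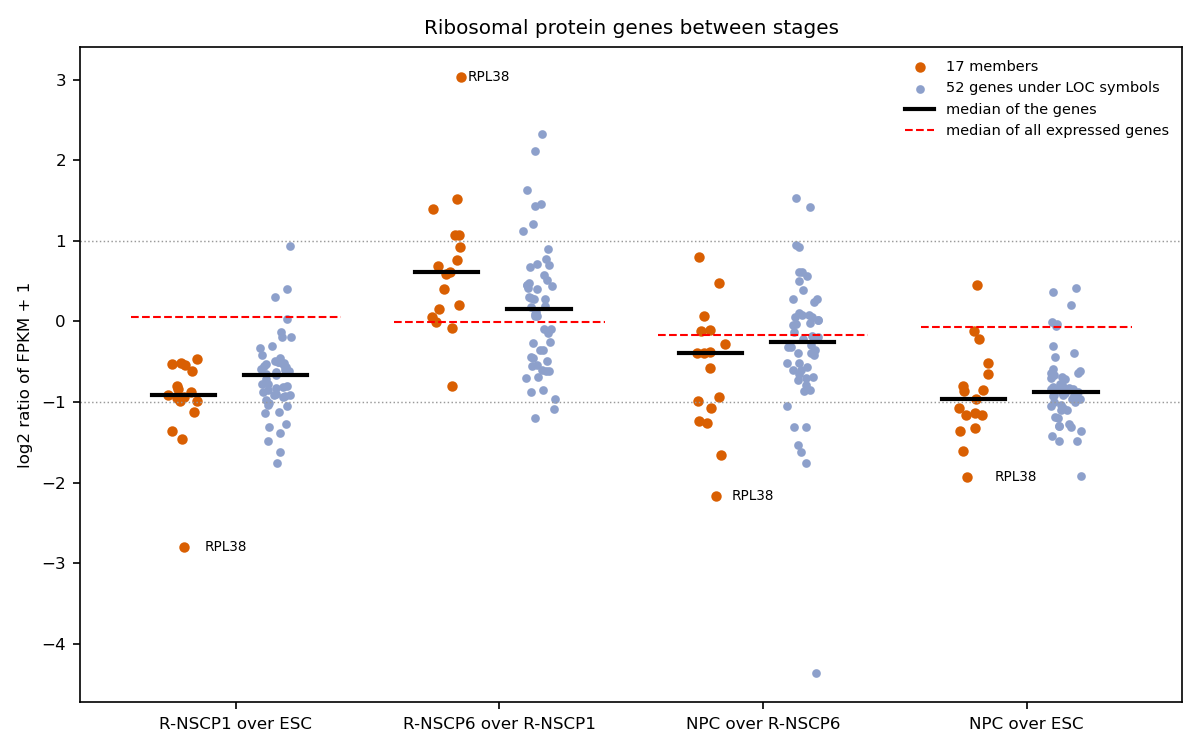
Log2 ratio of FPKM + 1 (vertical) for the 17 members (orange) and the 52 ribosomal protein genes under LOC symbols (blue) in each comparison of stages (horizontal), 1 point per gene. Black bars are medians over the genes, the red dashed line is the median of all expressed genes and dotted lines mark 2-fold. The members' medians are -0.92, 0.62, -0.39 and -0.96 from left to right; all 4 change sign if each library is divided by its FPKM sum, but only the third does so (0.03) if LOC100426412 and CTXN1 are left out of the sums.

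The comparison of NPC with R-NSCP6 covers the last step. The median log2 ratio was -0.39 against -0.17 for all expressed genes, and 14 members were lower, against 57% of all expressed genes. After division by the FPKM sum the median was 0.23, with 10 members higher and 7 lower, against 0.36 for all expressed genes, and with LOC100426412 and CTXN1 left out of the sums it was 0.03, with 9 higher and 8 lower, against 0.18. At 2-fold, 5 members were lower (RPL38, RPS24, RPSA, RPS3 and RPS9), against 18.2%, and 0 were higher, against 13.2%. The members that were higher were RPL37A (log2 ratio 0.80), RPS25 (0.48) and RPS21 (0.07), of which RPL37A and RPS25 had been lower in R-NSCP6 than in R-NSCP1. Against the abundant genes, whose median was -0.50, the members were not lower but 0.11 higher.

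NPC against ESC gives the whole course. All members but RPS21 were lower in NPC, 16 of 17 against 52.6% of all expressed genes, and the median log2 ratio was -0.96 against -0.07. At 2-fold, 8 members were lower (RPL38, RPS24, RPL24, RPS25, RPS13, RPS12, RPS3 and RPL19), against 22.2%, and 0 were higher, against 20.9%. The ratio of RPS21 was 0.46. The abundant genes had a median of -0.90, so that the members differed from them by only -0.07, and division by the FPKM sum brought the median of the members to 0.03, with 9 higher and 8 lower, and that of all expressed genes to 0.76. These medians were -0.16, with 5 members higher and 12 lower, and 0.59 when LOC100426412 and CTXN1 were left out of the sums. The 4 comparisons share stages, and a high or low library enters more than 1 of them.

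Seen over the 4 stages as deposited, 13 of the 17 members were lower in R-NSCP1 than in ESC, higher again in R-NSCP6 and lower in NPC than in R-NSCP6. Of all expressed genes, 18% had this course. After division by the FPKM sum 2 members had it, against 2.04% of all expressed genes, and with LOC100426412 and CTXN1 left out of the sums 4 did, against 4.07%. As deposited, the 4 members without it were RPL23, RPL37A, RPS21 and RPS25. Less mRNA per cell and fewer cells of a kind with much of it cannot be told apart in these pooled samples.

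The summed FPKM of the members followed the same course, with 29871 (ESC), 13230 (R-NSCP1), 24893 (R-NSCP6) and 14031 (NPC). Much of the difference between R-NSCP1 and R-NSCP6 was RPL38. Without it the sums were 22126, 12120, 15775 and 12009, so that R-NSCP6 was 1.30 times R-NSCP1 in place of 1.88 times. The small subunit genes summed to 12393 (ESC), 6497 (R-NSCP1), 8998 (R-NSCP6) and 6619 (NPC). The large subunit genes without RPL38 gave a similar course, with 9723, 5616, 6758 and 5381.

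As a share of the FPKM of all symbols, the members were far closer between stages. They made up 2.998% (ESC), 2.76% (R-NSCP1), 3.23% (R-NSCP6) and 2.80% (NPC). Without RPL38 the order turned around, with 2.22% (ESC), 2.53% (R-NSCP1), 2.04% (R-NSCP6) and 2.40% (NPC), so that R-NSCP1 had the highest share and R-NSCP6 the lowest. This order rested on LOC100426412 and CTXN1. With both left out of the total, the share without RPL38 was 2.82%, 2.66%, 2.61% and 2.66% from ESC to NPC, so that ESC had the highest share, and the share of all 17 was 3.80%, 2.90%, 4.12% and 3.11%. The sum and the share thus gave different orders of the stages, and no counts or added RNA standard were used here that would fix the scale.

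**Figure D3:**
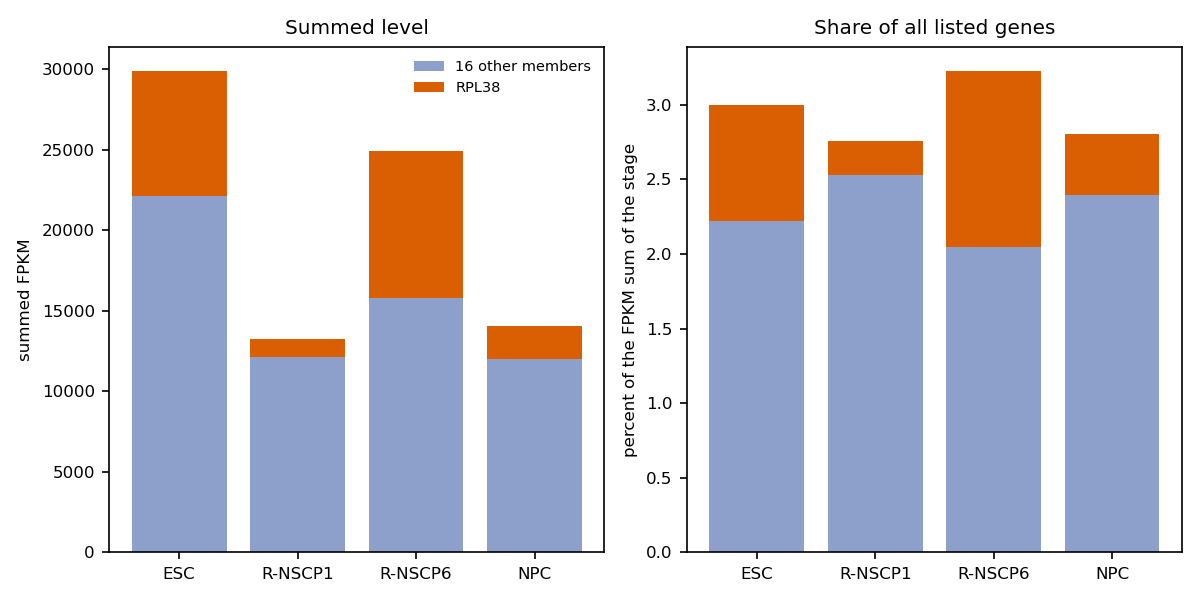
Left, summed FPKM (vertical) of the 17 members in each stage (horizontal), with RPL38 in orange and the other 16 in blue. Right, the same as a percentage of the FPKM of all symbols in the stage. The sum is highest in ESC (29871), whereas without RPL38 the share is highest in R-NSCP1 (2.53%), or in ESC (2.82%) if LOC100426412 and CTXN1 are left out of the total.

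Ribosomal protein genes have many near-identical processed copies in primate genomes, so that reads can fit several rows. For 10 of the 17 members the table held other rows that named the same protein. For most of them the row of the symbol carried at least 80% of the FPKM summed over all those rows. The exceptions were RPL38 with 69.8% to 94.4%, RPL19 with 69.6% to 74.3%, RPSA with 41.3% to 65.5% and RPS24 with 0.84% to 2.55%. The sources used here do not say how reads that fit several places were shared out, and the split between rows is therefore uncertain.

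RPS24 was the member most touched by this. A later annotation of the rhesus genome gives the gene ID of RPS24 to the row LOC708965, which had 668 FPKM (ESC), 474 (R-NSCP1), 779 (R-NSCP6) and 335 (NPC). The row LOC711145, described as S24-like, was higher, with 4404 (ESC), 2100 (R-NSCP1), 1565 (R-NSCP6) and 1388 (NPC). Summed over all 8 rows, R-NSCP6 and R-NSCP1 were nearly equal for RPS24 (log2 ratio -0.05), whereas the row of the symbol gave 1.52. No other sign changed between row and sum in the 4 comparisons, but R-NSCP6 against ESC was not among them. The highest stage did change for RPSA and RPS24, from R-NSCP6 in the row of the symbol to ESC in the sum. The rows of RPSA summed to 1532 FPKM (ESC), 861 (R-NSCP1), 1329 (R-NSCP6) and 704 (NPC). Those of RPS24 summed to 5293, 2679, 2582 and 1809. For RPL38 the sums over rows kept the course, with log2 ratios of -2.43, 2.60, -1.82 and -1.65 in the 4 comparisons. The 2 other rows of RPL38, both pseudogenes in that annotation, did not run alike: LOC694228 had 697 FPKM (ESC), 211 (R-NSCP1), 416 (R-NSCP6) and 342 (NPC), whereas LOC710665 had 147, 269, 123 and 371 and was high where RPL38 was low. Summed rows gave medians over the 17 members of -0.94, 0.57, -0.39 and -1.03.

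**Figure D4:**
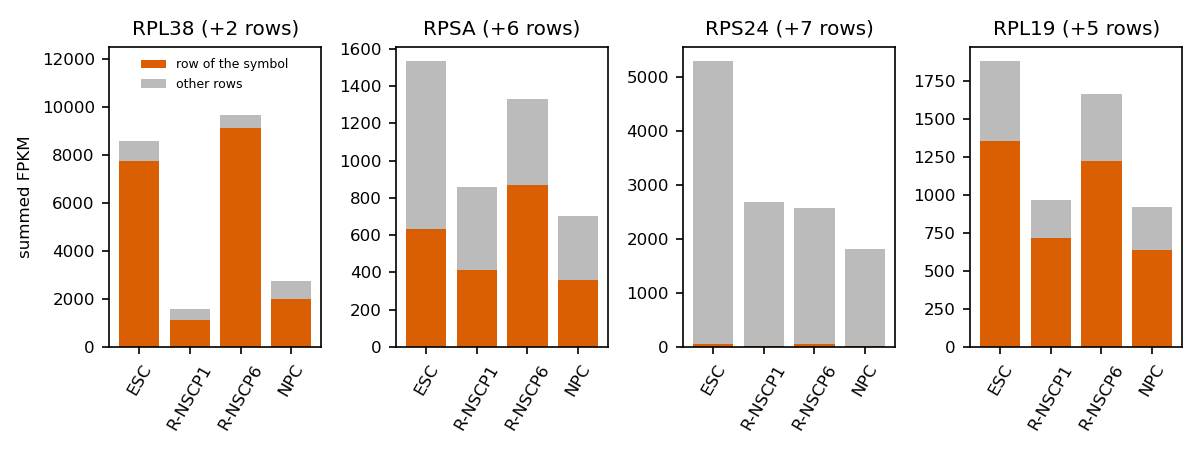
Summed FPKM (vertical) of the rows that name RPL38, RPSA, RPS24 and RPL19 in each stage (horizontal), with the row of the symbol in orange and all other rows of the same protein in grey. The axes differ between panels. The row of RPL38 holds 69.8% to 94.4% of the sum and the row of RPS24 at most 2.55%.

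The 17 symbols cover a small part of the ribosome, since many rhesus genes were listed under LOC symbols. Of 79 structural ribosomal proteins, 67 had a row, 50 of them under a LOC symbol whose gene ID carries their name in the later annotation, and for 12 no row was found. By the same symbol rule, 52 LOC rows were ribosomal protein genes. Of these, 48 were lower in R-NSCP1 than in ESC, against 47.1% of all expressed genes, with a median log2 ratio of -0.66 (0.39 after division by the FPKM sum). At 2-fold, 11 were lower, against 12.4%, and 0 higher, against 17.2%. For R-NSCP6 over R-NSCP1 the median was 0.15, and its sign changed after upper-quartile scaling (-0.00) and division by the sum (-0.54). At 2-fold, 7 genes were higher, near the 13% of all expressed genes, and 2 lower, against 11.2%. For NPC over R-NSCP6 the median was -0.25, with 2 higher and 7 lower, against 13.2% and 18.2%. The row named RPS18 was among the 7 each time. Only its R-NSCP6 value passed the minimum of 3 FPKM, so that minimum fixed both directions beforehand. For NPC over ESC the median was -0.88, with 0 higher and 16 lower, against 20.9% and 22.2%. The medians of these last 2 comparisons turned positive after division by the sum (0.37 and 0.12). With LOC100426412 and CTXN1 left out of the sums the 4 medians were 0.12, -0.26, 0.17 and -0.08.

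As deposited, ESC was the highest stage in 42 of the 52 LOC rows, against 10 of the 17 members and 32.5% of all expressed genes. The course seen in 13 of the 17 members was found in 23 of 52, against 18%. The difference in these counts between the 2 sets of symbols was not tested. Both counts depended on the scale. Division by the FPKM sum left the course in 2 of 52, against 2.04%. It put 44 of 52 (84.6%) above their ESC level at the first rosette stage, near the 86.3% of all expressed genes. With LOC100426412 and CTXN1 left out of the sums, 7 of 52 kept the course, against 4.07%. Their summed FPKM was 68598 (ESC), 39960 (R-NSCP1), 44590 (R-NSCP6) and 36104 (NPC), and their share of all FPKM was 6.88%, 8.33%, 5.78% and 7.21%. With LOC100426412 and CTXN1 left out of the totals the share was 8.73%, 8.77%, 7.38% and 7.998%, so that ESC and R-NSCP1 were about equal.

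The LOC rows included the proteins of the P stalk, which recruits translation factors. RPLP0, its base, had 1395 FPKM (ESC), 576 (R-NSCP1), 858 (R-NSCP6) and 893 (NPC). RPLP1 had 1222 (ESC), 1116 (R-NSCP1), 689 (R-NSCP6) and 814 (NPC). Its partner RPLP2 had 214 (ESC), 141 (R-NSCP1), 711 (R-NSCP6) and 210.3 (NPC). The partners RPLP1 and RPLP2 join the stalk as a pair, and their mRNAs were lowest and highest, respectively, in the same stage. RPL5, which binds the 5S RNA and can stabilize p53, had 1121 (ESC), 729 (R-NSCP1), 518 (R-NSCP6) and 626 (NPC). RPS6, the substrate of the S6 kinases, had 1533 (ESC), 782 (R-NSCP1), 1121 (R-NSCP6) and 838 (NPC).

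RPS19, the gene most often mutated in Diamond-Blackfan anaemia, was almost equal in 3 stages, with 334 in ESC, 341 in R-NSCP1 and 332 in NPC, and had 547 in R-NSCP6. Of 18 genes listed for that disease 14 had a row. As deposited all 14 were lower in NPC than in ESC, RPS19 hardly so (log2 ratio -0.01), against 52.6% of all expressed genes. Their median log2 ratio was -0.95, and 6 were at least 2-fold lower, against 22.2%. RPS24 was the only member among the 14. The 11 listed proteins around the peptide tunnel exit, a list that also held the bridge protein RPL24, had medians of -0.92, 0.21, -0.03 and -0.89 in the 4 comparisons. All small subunit proteins with a row (27 genes, with the RPS18 row) gave -0.78, 0.52, -0.39 and -0.91. Those of the large subunit (40 genes) gave -0.81, 0.19, -0.25 and -0.84, and all expressed genes 0.05, -0.00, -0.17 and -0.07. None of these lists was rescaled. Division by the FPKM sum shifts the log2 ratios by about 1.05, -0.69, 0.62 and 0.99. With LOC100426412 and CTXN1 left out of the sums the shifts are 0.79, -0.41, 0.42 and 0.80. The signs of these medians thus depend on the scale. FAU, whose product holds RPS30, had 1344 (ESC), 572 (R-NSCP1), 1221 (R-NSCP6) and 784 (NPC).

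Paralogs did not follow 1 course. RPL22L1, the paralog of RPL22, had 640 FPKM (ESC), 188 (R-NSCP1), 129 (R-NSCP6) and 169 (NPC), whereas RPL22 had 414, 288, 211 and 223. RPL22L1 was thus the higher of the pair in ESC and the lower in every neural stage. RPL26L1 had 2.69 (ESC), 6.07 (R-NSCP1), 29.6 (R-NSCP6) and 0.49 (NPC), while RPL26 had 1771, 802, 629 and 889. RPL7L1 had 79.7 (ESC), 41.1 (R-NSCP1), 17.4 (R-NSCP6) and 34.4 (NPC), and RPL7 had 2896, 1550, 2123 and 1484. The row that carries the name RPS18 was listed at 0 in ESC and reached 3.09 in R-NSCP6, far below the other ribosomal protein genes. RPS27L, a p53 target in human cells that the rule left out, had its highest value in NPC, with 3.46 (ESC), 10.5 (R-NSCP1), 4.20 (R-NSCP6) and 25.8 (NPC).

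Ribosome assembly factors were mostly lower in R-NSCP1 and NPC than in ESC as deposited. Of 75 listed ribosome biogenesis factors 68 had a row. In R-NSCP1 over ESC 35 of them were at least 2-fold lower, against 12.4% of all expressed genes, and 0 higher, against 17.2%. The median log2 ratio was -1.04. In NPC over ESC 55 were lower, against 22.2%, and 1 higher, against 20.9%, with a median of -1.56. In between, R-NSCP6 over R-NSCP1 gave 0.05 and NPC over R-NSCP6 -0.53. After division by the FPKM sum, R-NSCP1 over ESC gave -0.02, with 32 genes higher and 36 lower, against 86.3% and 13.3%, and NPC over ESC -0.62. At 2-fold on that scale, 3 were higher and 3 lower in R-NSCP1 over ESC, against 48.1% and 4.12%. In NPC over ESC 1 was higher and 20 lower, against 41.8% and 8.73%. Leaving LOC100426412 and CTXN1 out of the sums gave medians of -0.29 and -0.80. On that scale 1 and 1 were at least 2-fold higher, against 37.2% and 36.9%, and 4 and 31 lower, against 5.10% and 10.5%. NOP10, a box H/ACA particle protein, had 1549 FPKM (ESC), 198 (R-NSCP1), 879 (R-NSCP6) and 267 (NPC), the same order as RPL38 but for ESC and R-NSCP6. NPM1, a nucleolar chaperone, had 1558 (ESC), 513 (R-NSCP1), 498 (R-NSCP6) and 307 (NPC). FBL, the methyltransferase of box C/D particles, had 289, 154, 214 and 72.5. The 12 of 15 genes of the RNA polymerase I machinery with a row had medians of -0.68 in R-NSCP1 over ESC (0.31 after division by the sum) and -1.06 in NPC over ESC (-0.15), and UBTF, which activates rRNA genes, had 48.5, 46.9, 70.1 and 37.2.

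Among other mRNAs with a TOP tract, 19 of 20 had a row, with medians of -0.43, 0.24, -0.50 and -1.03 in the 4 comparisons as deposited. This list was not rescaled either, and the shifts given above apply to it. EEF1A1, the elongation factor that brings aminoacyl-tRNA, had 6687 FPKM (ESC), 5954 (R-NSCP1), 4377 (R-NSCP6) and 5892 (NPC), and EEF1G had 1223, 907, 1512 and 749. RACK1, a scaffold bound to the small subunit, had 969 (ESC), 729 (R-NSCP1), 733 (R-NSCP6) and 476 (NPC). In the same list TPT1 and PABPC1, named after their values were seen, were near 0 in every neural stage. TPT1 had 1777 in ESC and between 1.45 and 2.34 in the others, and PABPC1 had 323 and between 0.33 and 0.70. Whether these rows show the level of the genes was not tested. VIM ran the other way, with 44.9 (ESC), 412 (R-NSCP1), 948 (R-NSCP6) and 2515 (NPC). The 15 of 16 listed growth regulators with a row had a median of -0.20 in NPC over ESC, with 1 gene at least 2-fold higher and 6 lower, against 20.9% and 22.2% of all expressed genes. The 8 of 10 S6 kinases had a median of -0.22, with 1 higher and 2 lower, near the same shares.

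Mitochondrial ribosomal proteins and proteasome subunits, large complexes with no part in cytosolic translation, served for comparison. The 47 mitochondrial ribosomal protein genes had medians of -1.0, 0.35, -0.47 and -1.28 in the 4 comparisons, and the 30 proteasome genes -0.61, 0.32, -0.63 and -0.87. Both thus showed, as deposited, the same signs as the cytosolic ribosomal proteins. After division by the FPKM sum the signs turned in R-NSCP1 over ESC (0.04 and 0.41) and in R-NSCP6 over R-NSCP1 (-0.28 and -0.36) for both sets. They also turned in NPC over R-NSCP6 for the mitochondrial set (0.12) and in NPC over ESC for the proteasome set (0.11). With LOC100426412 and CTXN1 left out of the sums the medians were -0.23, -0.01, -0.07 and -0.50 for the mitochondrial set and 0.15, -0.08, -0.22 and -0.08 for the proteasome set. The median of the members was nearer to that of the abundant genes than to that of all expressed genes in all comparisons. Differences between these sets were not tested.

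**Figure D5:**
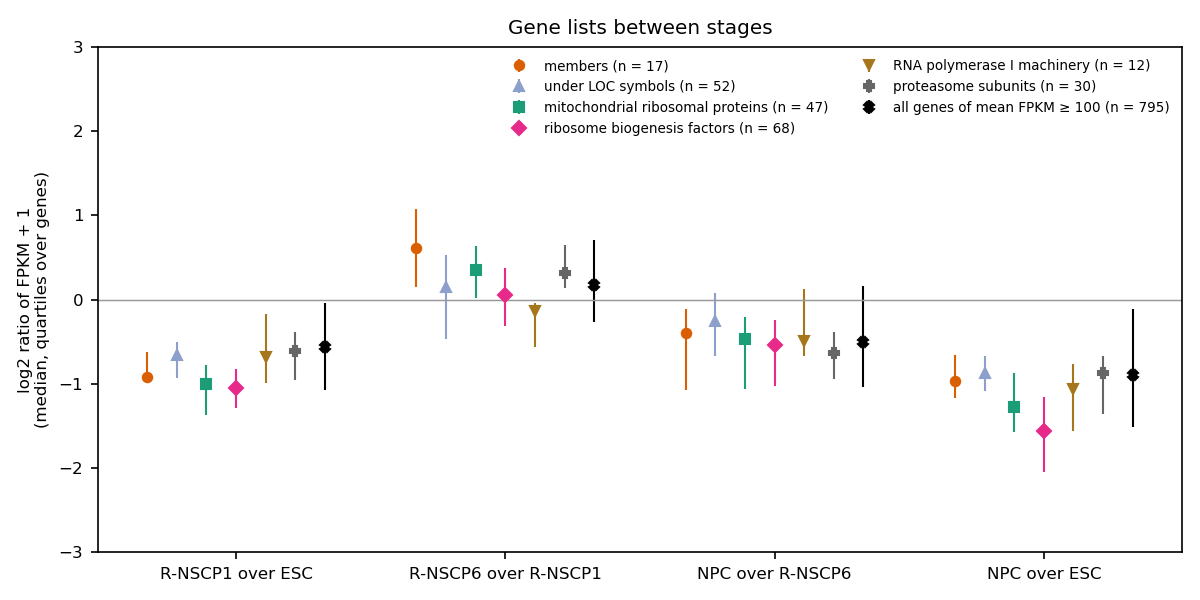
Median log2 ratio of FPKM + 1 (vertical, points) with quartiles over genes (lines) for 7 gene sets in each comparison of stages (horizontal), as deposited. The members have -0.92 in R-NSCP1 over ESC and the biogenesis factors -1.04, beside -0.56 for all genes with a mean of at least 100 FPKM. Dividing each library by its FPKM sum changes the sign for the members in all 4 comparisons, or in NPC over R-NSCP6 alone if LOC100426412 and CTXN1 are left out of the sums.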

How the data were processed

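Poly-A mRNA of 4 stages was sequenced as paired ends, 1 pooled library each. The authors mapped reads to MMUL_1.0 with TopHat and estimated the deposited FPKM values with Cufflinks 2.0.2. The submitters' processing notes also list Bowtie 0.12.8.0 and TopHat2 2.0.5. Counts, and whether libraries were scaled further, are not given in the sources used here. For a symbol with several rows the row of highest mean was used. LOC symbols were named by gene ID from a RefSeq table of a later rhesus assembly (T2T-MMU8v2.0), which matched 3747 of 5050 symbols, and its coordinates were not used. Log2 ratios used FPKM + 1, a minimum of 3 FPKM in at least 1 stage and a limit of 2-fold. Named genes were all members, fixed partners, and up to 5 of each list by mean FPKM. NOP10, FBL, NPM1, UBTF, VIM, EEF1A1, RACK1 and EEF1G came from such lists. Members and lists were chosen with earlier results of these data known. Ratios were tested on simulated data. Alternatives were 4 scalings, other pseudocounts, minimums, folds, rows and member sets. The small RNA table was not used here. Single values of 1 listed gene are not reported here. Python 3.11.15, numpy 2.4.6, pandas 2.3.3 and matplotlib 3.10.9 were used.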

Additional observations from a re-analysis of the deposited data

How the results depend on the processing

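There were no replicates, so none could be left out, and the p-values and intervals that replicates allow were not available. No paired analysis was possible because each stage had 1 library. The median of the members minus that of all expressed genes could hardly move under most alternatives: scalings shift all genes alike, no member had a second row or a stage at 0, and 12458 of 12460 symbols passed 3 FPKM. Its sign was also kept with 2 pseudocounts, a minimum of 10 FPKM and structural members only. The same held for members without RPL38 and for summed rows, both chosen after seeing the data. A further alternative chosen then was comparison with genes of a mean of at least 100 FPKM, a set that held 15 of the members. It brought the difference to -0.36 in R-NSCP1 over ESC and -0.067 in NPC over ESC, and reversed it to 0.11 in NPC over R-NSCP6. The cause was not tested.

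Counts of members past the fold limit moved more. With upper-quartile scaling, 3 were higher in R-NSCP6 over R-NSCP1, against 10.2% of all expressed genes, and 4 lower in NPC over ESC, against 18.3%. With median-of-ratios scaling 8 were lower in R-NSCP1 over ESC, against 13.8%. After division by the FPKM sum, the numbers higher and lower were 0 and 1 in R-NSCP1 over ESC, 1 and 1 in R-NSCP6 over R-NSCP1, 2 and 2 in NPC over R-NSCP6, and 1 and 0 in NPC over ESC, and the ESC sum was 19655 FPKM. The shares of all expressed genes on that scale were 48.1% and 4.12%, 4.54% and 30.9%, 25.9% and 8.93%, and 41.8% and 8.73%. With LOC100426412 and CTXN1 left out of the sums, chosen after seeing the data, the numbers were 0 and 1, 3 and 1, 1 and 2, and 1 and 1. The shares of all expressed genes were then 37.2% and 5.10%, 6.98% and 20.6%, 20.8% and 11.2%, and 36.9% and 10.5%. At 1.5-fold, 13 were lower in R-NSCP1 over ESC and 13 in NPC over ESC, 10 were higher and 1 lower in R-NSCP6 over R-NSCP1, and 1 was higher in NPC over R-NSCP6. At 4-fold, only RPL38 passed, in all comparisons but NPC over ESC, where 0 were lower. The shares of all expressed genes at 1.5-fold and 4-fold were not counted. With all rows of a protein summed, chosen after seeing the data, 3 were higher in R-NSCP6 over R-NSCP1 and 3 lower in NPC over R-NSCP6. All expressed genes, without such sums, had 13% and 18.2%. Without RPL38, also chosen then, the R-NSCP6 sum was 15775 FPKM.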
